A study of Mus musculus with 3 samples.

Results

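mmu-miR-223-3p and mmu-miR-223-5p, the arms of the mouse miR-223 hairpin, and mmu-miR-511-3p, an arm of the miR-511 hairpin, were followed through 3 small RNA libraries of mouse muscle cells. They were chosen by name as miRNAs of neutrophils and macrophages, and they are 3 of the 659 mature mouse miRNA names in the table. The libraries came from wild-type (WT) fibro/adipogenic progenitors, or FAPs, taken from muscle and not cultured. FAPs are mesenchymal cells between the muscle fibres and can give rise to fibroblasts and fat cells. 1 library was made 5 days after cardiotoxin, a snake venom toxin that destroys muscle fibres, 1 was made 3 weeks after sciatic denervation, and 1 came from normal muscle. The sources used here do not give the sort, the number of animals in each library or their age. Each condition had 1 library and so no replicate, which allows no test between conditions, and the 95% intervals after each value describe counting error alone. The table marks its counts as raw, and they summed to 3636249 in the cardiotoxin library, 7193088 in the denervated library and 4471365 in the normal library.

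miR-223 is made at high level in the myeloid lineage, above all in neutrophils and their precursors, where in mice it restrains the expansion of granulocytes, with Mef2c among its targets. miR-511 lies in an intron of Mrc1, the gene for the macrophage mannose receptor (CD206), and is made together with it in macrophages and dendritic cells. In regenerating muscle, neutrophils enter first and macrophages follow and clear the damaged fibres.

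The mature sequences are shown because each row of the table is defined by a sequence and because the seed sets which messages a miRNA can pair with. Capitals mark the seed, bases 2 to 8. The sequences are from RefSeq (GRCm38.p6).
miR-223-3p: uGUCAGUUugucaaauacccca
miR-223-5p: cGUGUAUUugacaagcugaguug
miR-511-3p: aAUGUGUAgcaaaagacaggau
The 3 seeds differ from each other. Each occurs in 1 of the 1679 RefSeq mature mouse miRNAs and in 1 mature mouse name of the table. No other mature mouse name in the table therefore carried a seed of these 3. Rows with other names were not searched.

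The hairpins show where the arms sit. Capitals mark the mature arms that RefSeq annotates.
miR-223 hairpin: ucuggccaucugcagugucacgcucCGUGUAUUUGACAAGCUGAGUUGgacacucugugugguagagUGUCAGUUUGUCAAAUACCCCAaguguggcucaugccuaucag
miR-511 hairpin: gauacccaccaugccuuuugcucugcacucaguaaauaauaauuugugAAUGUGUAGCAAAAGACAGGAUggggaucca
The miR-223 hairpin lies at chrX:96242817-96242926 on the plus strand (GRCm38.p6), inside an exon of the non-coding transcript F630028O10Rik (exon 3 of F630028O10Rik-201 and exon 2 of F630028O10Rik-202, GENCODE M21). The miR-511 hairpin lies at chr2:14261003-14261081 on the plus strand, in intron 5 of Mrc1-201, a transcript of 30 exons. Each name had 1 row in the table, so no rows had to be summed.

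The row sequences are printed as deposited, with T for U, because that of miR-223-3p differs from the reference. Capitals mark the bases at the seed positions, counted from the start of each row.
miR-223-3p row: tGTCAGTTtgtcaaataccccat
miR-223-5p row: cGTGTATTtgacaagctgagttg
miR-511-3p row: aATGTGTAgcaaaagacaggat
miR-511-5p row: cATGCCTTttgctctgcactca
The rows of miR-223-5p and miR-511-3p equal the RefSeq mature sequences. The miR-223-3p row is 1 base longer at its 3′ end, and that base is not the one in the hairpin (A23T, hairpin base first, counted from the 5′ end of the row). Its seed is that of the reference. The row of miR-511-5p, the other arm of miR-511, is found in the hairpin as printed. Its row name carries the mark L+1, read here as 1 base added at the 5′ end of the named arm. The RefSeq set has no entry for this arm, so that reading was not checked. If it holds, the capitals of this row start 1 base before the seed of miR-511-5p. Whether a row counts only its printed sequence or also its length variants is not stated in the table.

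Before the results, the label of the cells was set against markers. In the library labelled cardiotoxin, 9 analysed mesenchymal miRNAs such as miR-199a-5p and miR-214-3p summed to 6211 CPM (counts per 1000000 counts of the library), against 246544 CPM in the denervated and 249859 CPM in the normal library, and miR-214-5p was listed at 0 there. The other leukocyte miRNAs (both arms of miR-142a, miR-150 and miR-342, and miR-155-5p) summed to 18262 CPM in the cardiotoxin library, 728 CPM in the denervated library and 426 CPM in the normal library. Both arms of the endothelial miR-126a summed to 19251 CPM in the cardiotoxin library, 1659 CPM in the denervated library and 5401 CPM in the normal library. In the cardiotoxin library the markers thus go against the label of mesenchymal progenitors. The share of leukocytes and of endothelial cells in each preparation, and its part in the results, was not tested. In such bulk libraries more cells of a type and more RNA per cell cannot be told apart.

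The table lists few low counts. A whole count of 5 occurred in 60 rows of the cardiotoxin library, 81 of the denervated library and 50 of the normal library, whereas whole counts from 1 to 4 occurred in 3 rows of the cardiotoxin library, 7 of the denervated library and 9 of the normal library. A listed 0 may therefore stand for up to 4 reads. Folds against a 0 were computed with 5 counts in that library, which is 1.38 CPM in cardiotoxin, 0.695 CPM in denervated and 1.12 CPM in normal, and are given as "at least".

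All levels of the 3 miRNAs were highest in the cardiotoxin library. miR-223-3p, the abundant arm of the neutrophil miRNA, had 19657 counts or 5406 CPM (5331 to 5482) in the cardiotoxin library, 340 counts or 47.3 CPM (42.4 to 52.6) in the denervated library and 33 counts or 7.38 CPM (5.08 to 10.4) in the normal library. The intervals do not overlap, so the order of the libraries was cardiotoxin, denervated, normal beyond counting error. By level it ranked 23 among the 483 mature mouse miRNAs listed in the cardiotoxin library, 248 among 567 in the denervated library and 369 among 521 in the normal library. It made up 0.541% of all counts in cardiotoxin, 0.00473% in denervated and 0.000738% in normal.

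miR-223-5p, the lesser arm, had 921 counts or 253 CPM (237 to 270) in the cardiotoxin library and was listed at 0 in the denervated and normal libraries. miR-511-3p, the arm of the Mrc1 hairpin that predominates in mouse macrophages, had 792 counts or 218 CPM (203 to 234) in the cardiotoxin library and was likewise listed at 0 in the other 2. These 2 miRNAs were thus listed in the cardiotoxin library only, at ranks 117 and 127. miR-511-5p, from the same Mrc1 intron, followed with 114 counts or 31.4 CPM (25.9 to 37.7) in the cardiotoxin library and 0 elsewhere. In all, 59 of the 659 mature mouse names were listed in cardiotoxin and at 0 in denervated and normal. The 3 highest of these were miR-223-5p, miR-511-3p and miR-511-5p, and the next was miR-5107-5p at 48 counts. Outside the mature names, mmu-mir-692-3-p3 at 154 CPM and mmu-mir-692-3-p5 at 43.9 CPM were also listed in cardiotoxin and at 0 in denervated and normal. Both lay above miR-511-5p.

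**Figure D1:**
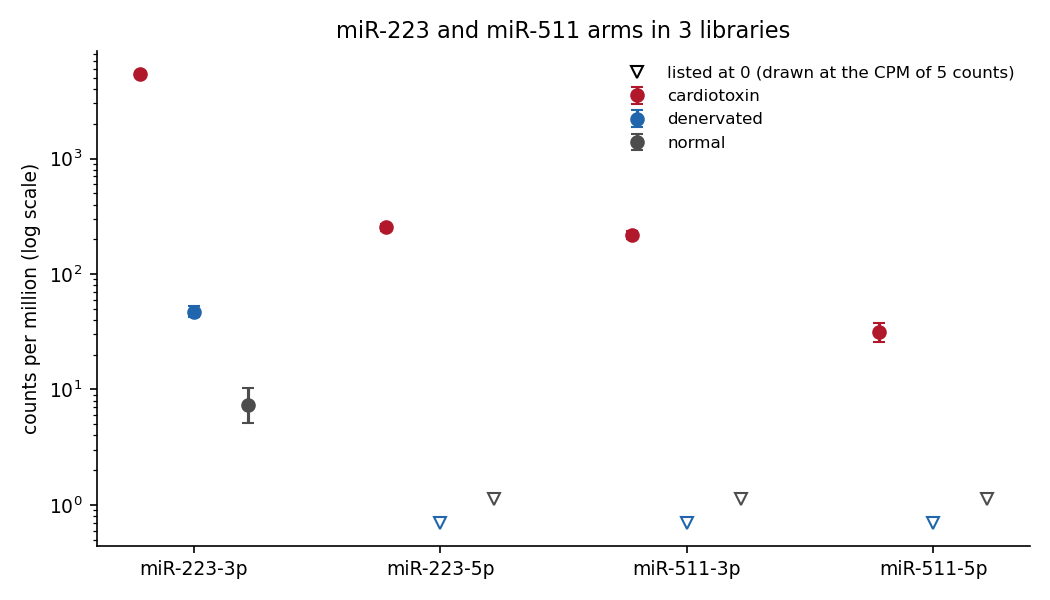
Level of each arm of miR-223 and miR-511 (x axis) in CPM on a log scale (y axis) in the cardiotoxin, denervated and normal libraries, 1 library each. Bars are 95% Poisson intervals for counting error and open triangles mark arms listed at 0, drawn at the CPM of 5 counts. miR-223-3p is the only arm with a value in all 3 libraries, at 5406 CPM in cardiotoxin, 47.3 CPM in denervated and 7.38 CPM in normal.

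Cardiotoxin was set against normal to ask how cells labelled FAPs differed during regeneration. All 3 miRNAs reached a 2-fold higher value in cardiotoxin on the scale of log2(CPM + 1), as did 144 of the 446 items that averaged 10 CPM or more (32.3%), while 176 (39.5%) were lower to that extent. miR-223-5p and miR-511-3p passed that minimum through the cardiotoxin library alone and so had to differ. miR-223-3p was 732-fold higher (521 to 1064), the highest log2 ratio (9.33) among 364 mature mouse miRNAs. miR-223-5p was at least 227-fold higher (log2 ratio 7.99, place 3) and miR-511-3p at least 195-fold higher (log2 ratio 7.77, place 4). miR-21a-5p held most of the cardiotoxin counts, and the size of each fold depended on whether the denominator included it. With the miR-21a-5p counts taken out of the totals, miR-223-3p was 1554-fold higher, miR-223-5p at least 481-fold and miR-511-3p at least 413-fold. Without the 5 most abundant items they were 1266-fold and at least 391-fold and 337-fold higher. At least 2-fold higher were then 255 of 490 items (52%, 139 lower) without miR-21a-5p and 235 of 507 (46.4%, 151 lower) without the 5. In the full totals it was 144 of 446 (32.3%, 176 lower), as the items reaching 10 CPM change with the denominator.

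The 6 kept members of the other leukocyte list also reached 2-fold higher values in cardiotoxin, with a median log2 ratio of 4.33, where the median of all 446 items was -0.09. miR-342-5p, 1 of these 6, averaged under 10 CPM in denervated and normal and passed the minimum only with its cardiotoxin value. Of 12 analysed miRNAs linked to macrophage activation or polarisation, 7 were at least 2-fold higher and 3 lower (median 2.40). The higher ones include miR-511-5p, at least 28.0-fold higher, and miR-146a-5p, a brake on NF-kB signalling, at 4976 CPM in cardiotoxin against 584 CPM in normal. miR-147-3p, which Toll-like receptor stimulation induces in mouse macrophages, was at 82.8 CPM in cardiotoxin against 4.25 CPM in normal. miR-511-5p and miR-147-3p passed the 10 CPM minimum through the cardiotoxin library alone and so had to come out higher, and their folds are given as values. The 3 lower ones were miR-125a-5p, miR-99b-5p and let-7e-5p, which are made from 1 cluster, and miR-125a-5p was at 2035 CPM in cardiotoxin against 25310 CPM in normal. The list therefore did not move as a unit. miR-132-3p and miR-212-3p, a further cluster, lay within 2-fold with the full totals. miR-212-3p averaged 9.23 CPM in denervated and normal and likewise passed the minimum only with its cardiotoxin value. All 9 mesenchymal miRNAs were at least 2-fold lower (median -7.29), and both arms of the endothelial miR-126a were higher (median 1.80). Without miR-21a-5p, or without the 5 most abundant items, in the totals, 9 of the 12 macrophage-linked miRNAs were higher and 8 of the 9 mesenchymal miRNAs lower by that measure. At those denominators 52% (255 of 490) and 46.4% (235 of 507) of all items were higher, against 32.3% with the full totals. The numbers of items lower were 139 and 151.

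**Figure D2:**
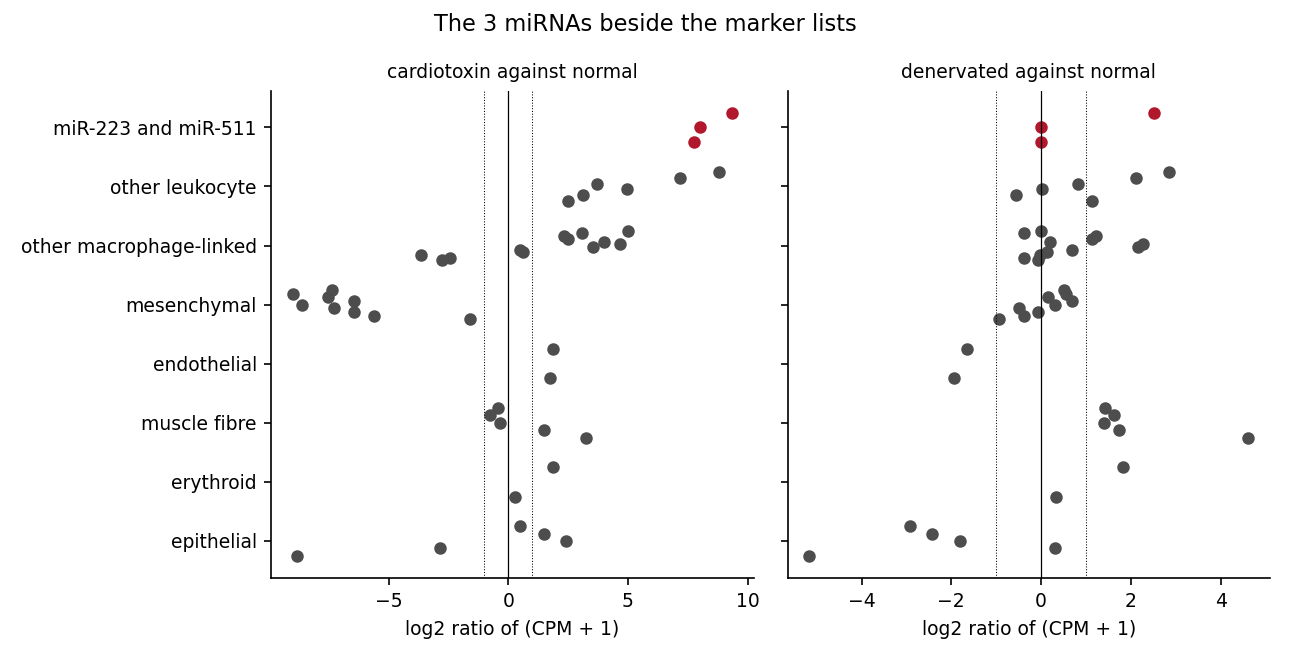
Log2 ratio of CPM + 1 (x axis) for miR-223 and miR-511 (red) and the miRNAs of 7 marker lists (grey, 1 point per miRNA averaging 10 CPM or more), in cardiotoxin against normal (left) and denervated against normal (right). Dotted lines mark 2-fold. The 3 red points lie at 9.33, 7.99 and 7.77 on the left, and at 2.53 and, for the 2 listed at 0 in both libraries, 0 on the right.

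The comparison of denervated with normal asked the same of muscle that had lost its nerve, and it does not involve the library whose markers go against its label. miR-223-3p was 6.40-fold higher (4.47 to 9.46) in denervated, from 340 counts against 33. Its log2 ratio of 2.53 took place 4 among 364 mature miRNAs. Of 446 items, 28 (6.28%) reached a 2-fold higher value and 28 (6.28%) a 2-fold lower one. Over the alternative denominators its fold lay between 6.40 and 6.99. miR-223-5p and miR-511-3p, listed at 0 in both libraries, give no fold.

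Beside this, 3 of the 6 kept other leukocyte miRNAs reached 2-fold higher values in denervated (median 0.98, against -0.09 for all items). These were both arms of miR-142a, found across blood lineages, and miR-155-5p, induced in activated leukocytes. miR-142a-3p was at 54.8 CPM in denervated against 6.71 CPM in normal, and miR-155-5p at 42.5 CPM in denervated against 18.8 CPM in normal. miR-342-3p was at 238 CPM in denervated and 234 CPM in normal. Of the 12 macrophage-linked miRNAs, 4 were higher and 0 lower (median 0.17). These 4 were miR-155-5p, which stands on both lists, both arms of miR-21a, and miR-146b-5p. miR-146b-5p was at 750 CPM in denervated and 320 CPM in normal, whereas miR-146a-5p was at 449 CPM in denervated and 584 CPM in normal. All 9 mesenchymal miRNAs lay within 2-fold (median 0.15), all 5 of the muscle fibre list reached 2-fold higher values and both miR-126a arms 2-fold lower ones. miR-451a, the defining red cell miRNA, was at 16.8 CPM in denervated against 4.03 CPM in normal, 4.18-fold higher (2.54 to 7.29). The erythroid miR-486a-5p lay within 2-fold, at 78.4 CPM in denervated against 61.8 CPM in normal. Under the 10 CPM minimum, miR-144-3p was at 3.06 CPM in denervated against 2.91 CPM in normal, and miR-144-5p at 1.11 CPM against a listed 0. The part of blood and of these cell types in the miR-223-3p value was not tested.

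**Figure D3:**
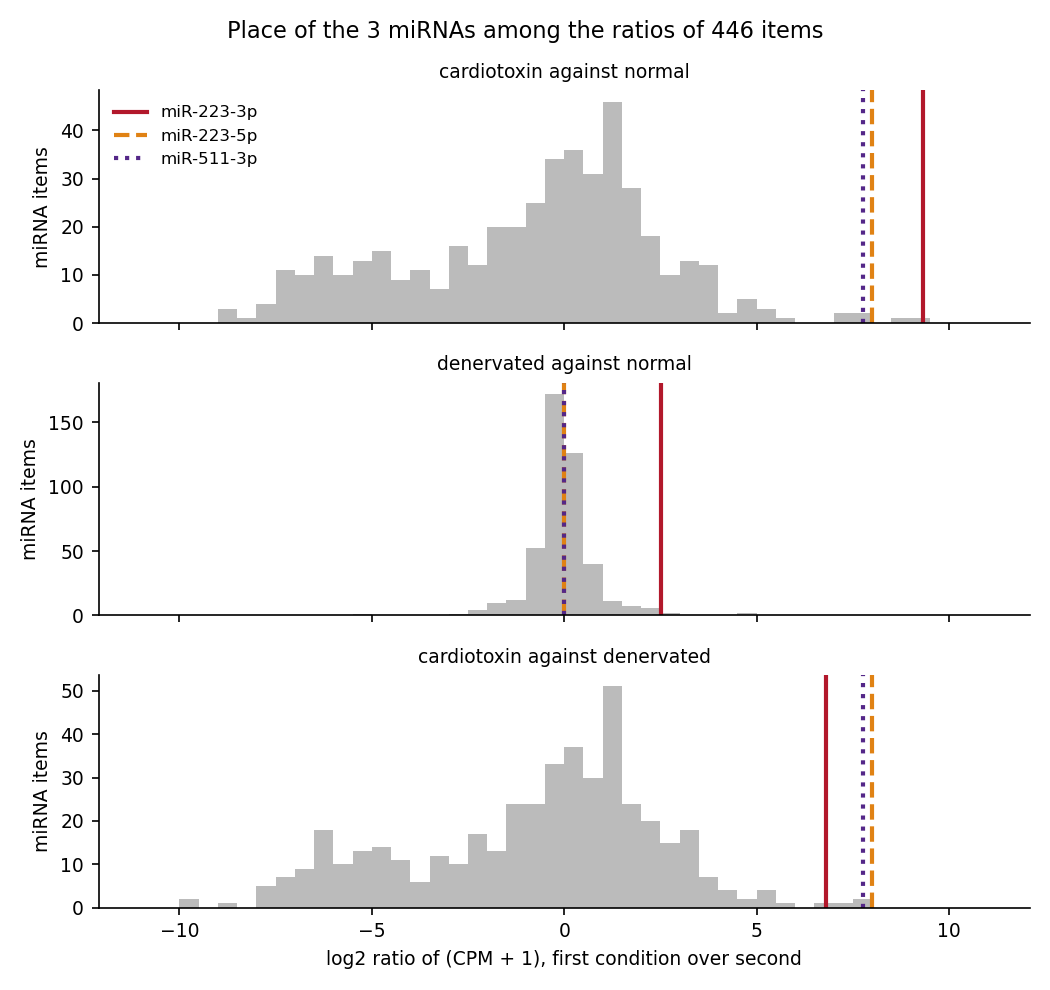
Number of items (y axis) by log2 ratio of CPM + 1, first condition over second (x axis, bins of equal width), for 446 items averaging 10 CPM or more in the 3 comparisons. Lines mark miR-223-3p, miR-223-5p and miR-511-3p. They lie at the right edge in both comparisons with cardiotoxin. In denervated against normal only miR-223-3p, at 2.53, lies away from 0.

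Between the injured muscles, miR-223-3p was 114-fold higher in cardiotoxin than in denervated (103 to 128). miR-223-5p was at least 364-fold and miR-511-3p at least 313-fold higher, places 1 and 2 by log2 ratio among 364 mature miRNAs, with miR-223-3p at place 3. miR-223-5p and miR-511-3p passed the 10 CPM minimum through the cardiotoxin library alone, so here too they had to come out higher. In this comparison 150 of 446 items (33.6%) reached a 2-fold higher value and 172 (38.6%) a 2-fold lower one. This comparison and that with normal share the cardiotoxin library. Without miR-21a-5p in the totals miR-223-3p was 222-fold higher (247 of 490 items or 50.4% higher, 139 lower). Without the 5 most abundant items it was 192-fold higher (241 of 507 items or 47.5% higher, 154 lower). TMM factors gave 87.9-fold (109 of 447 items or 24.4% higher, 195 lower). The authors' normalized signal gave 87.1-fold (108 of 447 or 24.2% higher, 196 lower).

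Ratios within a library do not depend on any denominator, so miR-223-3p was also set against the other leukocyte miRNAs in the same library. Against miR-142a-3p, which all blood lineages share, it had 1.58 counts per count in cardiotoxin (1.54 to 1.61), 0.863 in denervated (0.744 to 1.0002) and 1.10 in normal (0.650 to 1.87). The interval of the normal library, from 33 and 30 counts, covers both other values, so an order was resolved only between cardiotoxin and denervated. Against miR-142a-5p the ratio was 0.927 in cardiotoxin (0.909 to 0.945), 0.272 in denervated (0.241 to 0.307) and 0.188 in normal (0.125 to 0.273). Against this arm the intervals of denervated and normal overlap as well, and that of cardiotoxin lies above both.

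Against the lymphocyte miRNA miR-150-5p the libraries stood further apart. miR-223-3p had 3.51 counts per count of miR-150-5p in cardiotoxin (3.40 to 3.61), 0.230 in denervated (0.204 to 0.259) and 0.0638 in normal (0.0435 to 0.0908). miR-150-5p thus outnumbered miR-223-3p 4.35 to 1 in the denervated and 15.7 to 1 in the normal library, and was outnumbered in cardiotoxin. The miR-150-5p counts leave out a row named bta-miR-150. That row was at 213 CPM in cardiotoxin, 23.2 CPM in denervated and 13.6 CPM in normal. Against miR-342-3p the ratio was 0.749 in cardiotoxin (0.735 to 0.763), 0.199 in denervated (0.177 to 0.224) and 0.0315 in normal (0.0216 to 0.0445). Against miR-155-5p it was 48.8 in cardiotoxin (44.2 to 54.0), 1.11 in denervated (0.949 to 1.30) and 0.393 in normal (0.254 to 0.594). For these 3 miRNAs the intervals of the libraries do not overlap, and the order was cardiotoxin, denervated, normal each time. miR-150-5p, miR-342-3p and miR-155-5p therefore differed less between libraries than miR-223-3p did.

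**Figure D4:**
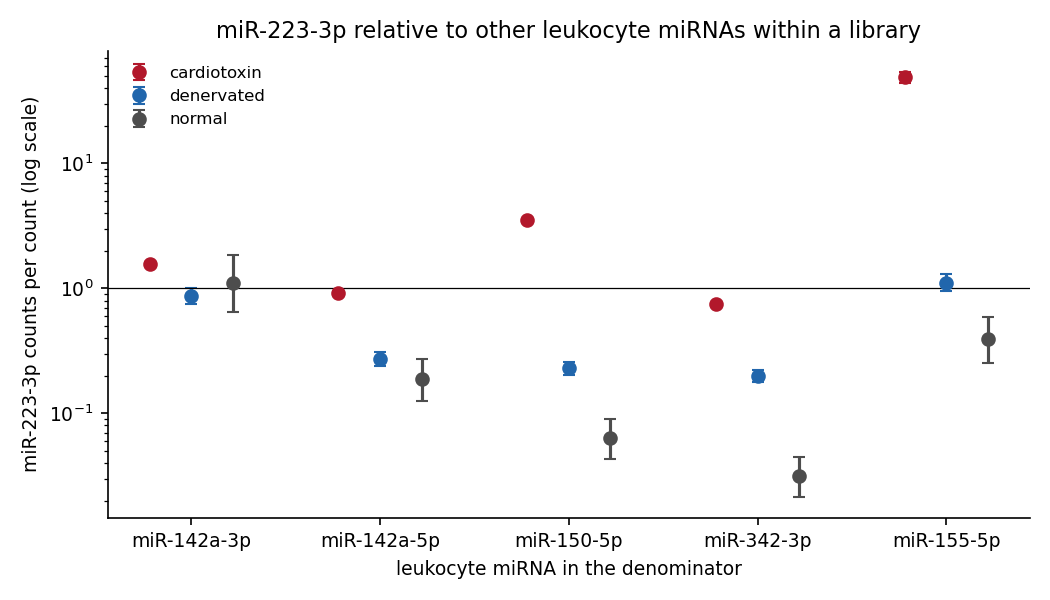
Counts of miR-223-3p per count of another leukocyte miRNA in the same library (y axis, log scale) for 5 such miRNAs (x axis) in the cardiotoxin, denervated and normal libraries, with 95% intervals for counting error. The cardiotoxin value is above the denervated one for each of the 5, from 1.58 against 0.863 for miR-142a-3p to 48.8 against 1.11 for miR-155-5p.

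The arms of a hairpin are cut from 1 precursor, and usually 1 is kept far more than the other. In the cardiotoxin library miR-223-5p made up 4.48% of the 20578 counts of both miR-223 arms (exact binomial interval 4.20% to 4.77%), or 21.3 counts of miR-223-3p for each of miR-223-5p. In the denervated library 0 of 340 counts were miR-223-5p, where the cardiotoxin ratio would give 15.9. With 4 unlisted reads its share would be 1.16%, below the cardiotoxin interval. In the normal library the same ratio would give 1.55 counts, under what the table lists, so the 0 there carries no information on the arms. For miR-511 the 5p share in cardiotoxin was 12.6% of 906 counts (10.5% to 14.9%), and no share can be given for the libraries where both arms were listed at 0.

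miR-511-3p had 4.03% of the count of miR-223-3p in the cardiotoxin library (3.75% to 4.33%). At that ratio the denervated library would hold 13.7 counts of miR-511-3p, and it was listed at 0, which with 4 unlisted reads is 1.18%. In normal the ratio would give 1.33 counts, again under what the table lists. In denervated muscle the higher miR-223-3p was thus not accompanied by its 5p arm or by miR-511-3p at their cardiotoxin proportions.

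The miRNAs with the most similar profiles were found by the Euclidean distance between log2(CPM + 1) values over the 3 libraries after subtracting each miRNA's own mean, among 363 others. The nearest to miR-223-3p was miR-142a-3p (distance 0.62), followed by miR-142a-5p (1.62), miR-223-5p (1.79), miR-511-3p (1.80) and miR-130b-5p (2.84). miR-223-5p and miR-511-3p were each other's nearest, at a distance of 0.18. As each was listed at 0 in denervated and normal, that distance rests on their cardiotoxin levels alone, 253 and 218 CPM. Both then had miR-223-3p and the miR-142a arms as the next 3, and miR-7a-5p as the fifth (2.28 from miR-223-5p and 2.10 from miR-511-3p). miR-7a-5p was at 3363 CPM in cardiotoxin, 89.6 CPM in denervated and 91.2 CPM in normal. With 3 libraries these distances describe the profiles and carry no test.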

How the data were processed

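Libraries were made from total RNA with a TruSeq small RNA kit (Illumina), per the labels' protocols. The authors' deposited values are estimated counts for each miRNA row, marked raw per the file headers, of which 87.9% to 88.4% were whole within 1e-06. The deposited normalized signal equalled the count times 1 factor per library (1.12 cardiotoxin, 0.746 denervated, 1.11 normal), and the file does not say how the authors set it. A chi-square p-value deposited by the authors compares reads of the 3 libraries and was not used. The submitters' processing notes name StringTie without a role. For the aligner and the build, the sources used here give no name. 3 emptied lines of the table are not analysed here.

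Rows of 1 mature mouse name were summed (7 names), which turned 1108 rows into 1097 items, and counts were divided by the library total. Log2 ratios used a pseudocount of 1 CPM and items averaging 10 CPM or more. Fold intervals are exact conditional binomial (Clopper-Pearson) on rounded counts, level intervals are Poisson, and neither covers more than counting error, because these reads carry no molecular identifiers and are not independent molecules. The bound against a 0 had been set at 3 counts and was changed to 5 once the low end of the table was seen. Interval and ratio code was tested on simulated counts. The marker lists covered leukocyte, macrophage-linked, mesenchymal, endothelial, muscle fibre, erythroid and epithelial miRNAs. Other miRNAs named are list members and, for each of the 3 miRNAs, the 5 nearest profiles. miR-5107-5p, bta-miR-150 and the mmu-mir-692-3 items were named after their values were seen. The 3 miRNAs and the lists were chosen with earlier results of these data known. Python 3.11.15, scipy 1.17.1 and edgeR 4.0.16 (TMM factors) were used. Alternatives were other denominators, minimums and pseudocounts, and the highest row per name.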

Additional observations from a re-analysis of the deposited data

How the results depend on the processing

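The direction of every fold of miR-223-3p, miR-223-5p and miR-511-3p and the number of them at least 2-fold higher (3, 1 and 3 in cardiotoxin against normal, denervated against normal and cardiotoxin against denervated) held under the 6 other denominators. For miR-223-5p and miR-511-3p, listed at 0 in denervated and normal, this was fixed in advance. The log2 ratios of miR-223-3p (9.33, 2.53 and 6.81, in the same order) were also far larger than the shifts these denominators made, given below. Its direction and its 2-fold call were therefore in effect fixed as well, and only the sizes of the folds could vary. In cardiotoxin against normal, miR-223-3p ranged from 602-fold to 1554-fold, miR-223-5p from at least 186-fold to 481-fold and miR-511-3p from at least 160-fold to 413-fold. In cardiotoxin against denervated the ranges were 87.1-fold to 222-fold, 278-fold to 708-fold and 239-fold to 609-fold, in the same order. With 3 counts in place of 5 for a listed 0, miR-223-5p was at least 378-fold and miR-511-3p at least 325-fold higher against normal, and 607-fold and 522-fold higher against denervated. Denominators moved the median log2 ratio of all items by -0.45 (TMM) to 1.18 (without miR-21a-5p) in cardiotoxin against normal and by at most 0.11 in denervated against normal. With a minimum of 100 CPM 219 items entered, and with none 1097. The number of items at least 2-fold apart followed the number entered. In cardiotoxin against normal it was 154 with a minimum of 100 CPM and 702 with none, in denervated against normal 25 and 237, and in cardiotoxin against denervated 153 and 658. No paired analysis was possible because each condition had 1 library. In the normal library miR-223-3p rests on 33 counts.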

Other observations

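The other marker lists add to the picture of the libraries. Erythroid miRNAs summed to 94.1 CPM in cardiotoxin, 99.4 CPM in denervated and 68.8 CPM in normal. miR-451a, the defining red cell miRNA, was at 17.3 CPM in cardiotoxin, 16.8 CPM in denervated and 4.03 CPM in normal. miR-486a-5p, with most of the summed level, was at 75.4 CPM in cardiotoxin, 78.4 CPM in denervated and 61.8 CPM in normal. The epithelial miRNAs did not move together. miR-200c-3p was at 108 CPM in cardiotoxin, 4.87 CPM in denervated and 19.5 CPM in normal, and miR-200a-3p and miR-200b-3p were likewise highest in cardiotoxin and lowest in denervated. miR-203-3p was at 47.6 CPM in cardiotoxin, 443 CPM in denervated and 354 CPM in normal, and miR-205-5p was listed at 0 in cardiotoxin, at 11.8 CPM in denervated and at 457 CPM in normal. The 5 muscle fibre miRNAs summed to 928 CPM in cardiotoxin, 3159 CPM in denervated and 903 CPM in normal. The similar cardiotoxin and normal sums do not mean that each member was alike. With the full totals miR-206-3p (282 CPM in cardiotoxin, 28.9 CPM in normal) and miR-133b-3p (29.5 and 9.91 CPM) were at least 2-fold higher in cardiotoxin. The other 3 lay within 2-fold.

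The 0 of miR-223-5p in the denervated library was set beside other hairpins, a comparison chosen after seeing it. Among hairpins with both arms in the table, 97 had a lesser arm in cardiotoxin that would reach at least 10 counts in denervated at the cardiotoxin ratio of the arms. Their lesser arms had a median of 1.16 times that count in denervated. In 15 of the 97 the lesser arm was under 0.5 times that count. miR-223, with an expected count of 15.9, was 1 of these and the 1 listed at 0. Only 15 hairpins had an expected count under 30. If 4 reads of miR-223-5p had gone unlisted in denervated, its value would be 0.25 times the expected count, and 2 other hairpins were below that.

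The unmatched last base of the miR-223-3p row was likewise set beside other rows. Of 59 rows that lengthen a RefSeq mature sequence by 1 base at the 3′ end, 40 end with the base of the hairpin and 19 do not. Of these 19, 17 end in T, as the miR-223-3p row does, and 2 in A.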
